A study of Mus musculus with 4 samples.

Results

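Glutathione S-transferases (GSTs) join the tripeptide glutathione to reactive, often toxic molecules, which makes them easier to export and excrete. The soluble enzymes fall into classes by sequence, among them alpha, mu, pi and theta, and the liver carries many of them as part of its defence against drugs, toxins and products of lipid peroxidation. Several GST genes of rodent liver are known targets of NRF2, a transcription factor activated by oxidative and electrophilic stress, and of the xenobiotic receptors CAR and PXR. The 10 GST genes described here were Gsta2, Gsta3 and Gsta4 of the alpha class, Gstm1, Gstm2 and Gstm3 of the mu class, Gstp3 of the pi class, and Gstt1, Gstt2 and Gstt3 of the theta class. They were chosen by symbol with the differences between genotypes in these arrays already known, so their differences are a description and were not tested. All probe sets annotated to 1 of these symbols were taken, which gave 15 of 45037 probe sets. A further probe set, 1421041_s_at, is annotated to Gsta2, Gsta1 and Gm3776 together, and no probe set is annotated to several of the 10 genes.

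Livers of C57BL/6 mice with a liver-specific knockout of Baf60a (Baf60a LKO) were compared with livers of wild-type (WT) mice. The deleted gene, Smarcd1, encodes BAF60a, which belongs to the chromatin remodeller SWI/SNF. All mice, of both genotypes, ate a high-fat diet for 10 weeks from the age of 6 weeks and were fasted overnight before the liver was taken. RNA was hybridised to Affymetrix Mouse Genome 430 2.0 arrays, 2 per genotype, each with its own pool of RNA. The sources used here do not give the Cre line, or how many mice and of which sex made up a pool. Every spread below is one between pools, and the number of arrays limits the precision. In whole liver RNA, fewer cells of a type and less RNA per cell cannot be told apart.

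All values are log2 expression from robust multi-array average (RMA) processing, and differences are Baf60a LKO minus WT with the standard error of a limma fit (n = 2 arrays each). Array medians lay between 4.19 and 4.27. WT replicate 1 correlated less with the other arrays (Pearson's r over probe sets 0.987 to 0.991) than those did with each other (0.993 to 0.996). As a gauge of background, 27 control probe sets for Bacillus transcripts had 95th percentiles of 2.63 to 2.86. The brighter of 2 probe sets for Smarcd1 read 5.34 and 5.30 in Baf60a LKO and 5.62 and 5.88 in WT. It may read sequence outside the deletion, so it does not check the genotype. The hepatocyte marker Alb, the albumin gene, read 14.1 and 14.2 in Baf60a LKO and 14.0 and 14.1 in WT.

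Among the listed genes, Gstp3, the only one of the pi class, stood far higher in Baf60a LKO livers. Those of the alpha and theta classes lay lower. The listed mu genes differed by less than the theta genes, and in both directions. Of the 15 probe sets, 11 were lower in both Baf60a LKO arrays than in both WT arrays, where 19.4% of all probe sets were, and 2 were higher without overlap, where 19.7% were. The median difference was -0.59 over the 4 alpha probe sets, 4.86 for the single pi probe set and -0.85 over the 3 of the theta class. It was -0.24 over the 7 mu probe sets, 4 of which read Gstm1, and -0.0069 over all probe sets. These medians describe the listed genes and not whole classes. The 4 mu genes that are not listed had a median of 0.42, with 3 higher and 1 lower without overlap. In the fit over all probe sets 84, or 0.187%, passed an adjusted p of 0.05, and Gstp3 was the 1 of the 15 among them. Gstt2 joined it after cyclic loess, and Gstt1 and Gstt2 did with a trended and robust eBayes. Of the 84, 30 were higher and 54 lower, while other scalings gave a more even split (78 higher and 68 lower with array medians subtracted, 67 and 72 after quantile normalization, 79 and 83 after cyclic loess). Since the genes were chosen on this contrast, nothing is read from these shares.

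**Figure D1:**
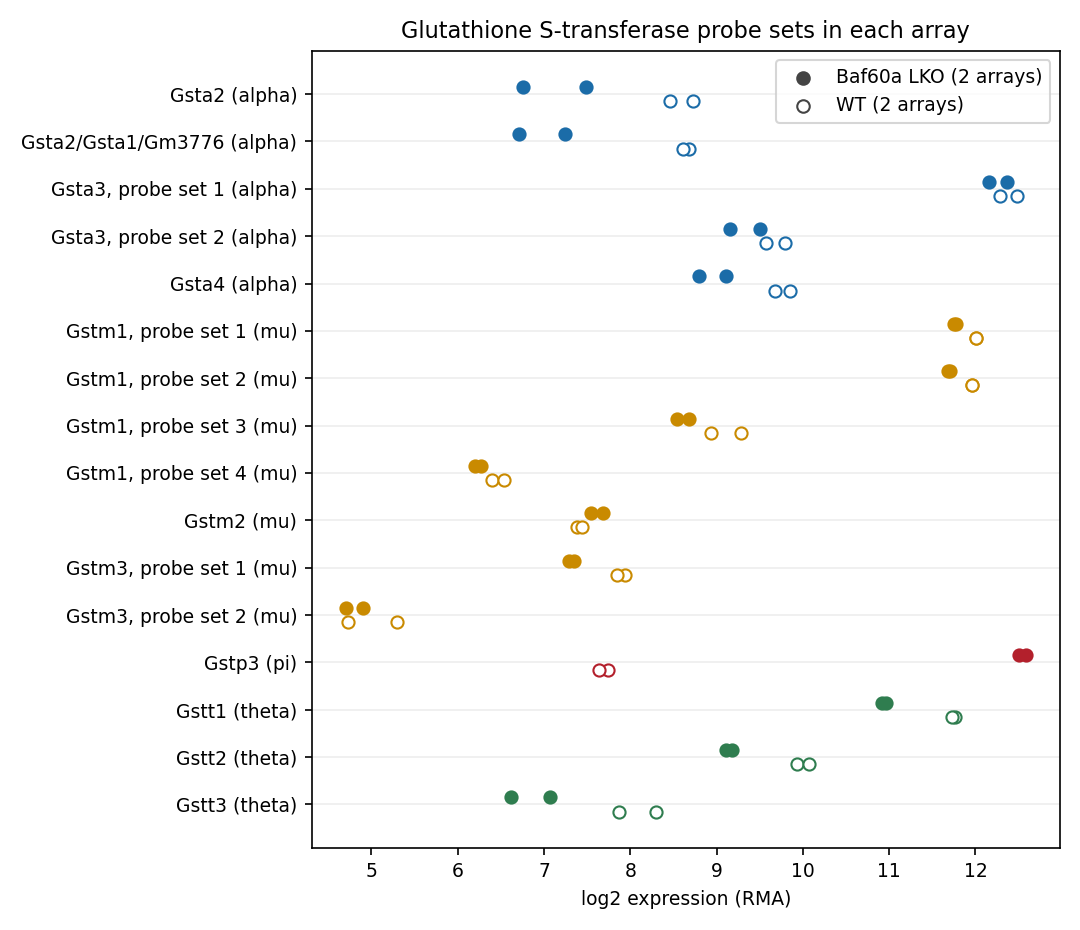
Log2 expression of the 15 GST probe sets and of the probe set shared by Gsta2, Gsta1 and Gm3776 in each array; filled points are the 2 Baf60a LKO arrays and open points the 2 WT arrays, coloured by class. Gstp3 stands at 12.5 and 12.6 in Baf60a LKO and at 7.74 and 7.63 in WT, and the theta genes lie lower in both Baf60a LKO arrays.

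Gstp3, a pi-class gene in a row with Gstp2 and Gstp1 on chromosome 19, differed most of the 10 genes. Its probe set, 1424953_at, read 12.5 and 12.6 in Baf60a LKO and 7.74 and 7.63 in WT. The groups stood far apart, with gaps of 0.074 between the Baf60a LKO pools and 0.11 between the WT pools. The difference was 4.86 ± 0.13, or 29.0-fold, the largest positive difference among all 45037 probe sets. Leaving out any 1 array gave 4.81 to 4.91.

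Gstp1, on the far side of Gstp2, which encodes the main pi-class enzyme, read high in both genotypes. It stood at 13.3 in both Baf60a LKO arrays and 13.0 in both WT arrays, a difference of 0.28 ± 0.12 that did not pass (limma, adjusted p = 0.618). Gstp1 is not one of the 10 genes. No probe set is annotated to Gstp2, the direct neighbour of Gstp3, and whether the Gstp1 probe set also reads it was not examined. On the outer sides of the 3 pi genes, Ndufv1 differed by 0.08 ± 0.12 and Cabp2 by 0.23 ± 0.16, and neither passed (limma, adjusted p = 0.872 and 0.691). The difference of Gstp3 thus had no counterpart of its size in these measured genes.

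The sequences just upstream of the 3 pi genes are shown because Gstp3 and Gstp1 lie in the same row of genes, with Gstp2 between them, and differed so unequally between genotypes. They are the 250 bases before the RefSeq start of each gene (GRCm38.p6), 5′ to 3′ along the gene, and capitals mark the AP-1 motif TGACTCA in either orientation.
Gstp3 (chr19:4059448-4059697, minus strand): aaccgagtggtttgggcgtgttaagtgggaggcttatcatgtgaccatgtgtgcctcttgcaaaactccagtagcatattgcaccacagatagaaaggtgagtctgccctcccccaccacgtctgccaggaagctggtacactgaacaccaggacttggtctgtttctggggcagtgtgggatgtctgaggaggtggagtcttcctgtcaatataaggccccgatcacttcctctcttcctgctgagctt
Gstp2 (chr19:4042222-4042471, minus strand): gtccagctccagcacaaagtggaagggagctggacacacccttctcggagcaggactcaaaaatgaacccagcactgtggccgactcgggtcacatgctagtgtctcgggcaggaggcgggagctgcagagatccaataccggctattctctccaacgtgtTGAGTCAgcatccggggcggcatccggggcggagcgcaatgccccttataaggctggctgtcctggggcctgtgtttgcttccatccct
Gstp1 (chr19:4037913-4038162, minus strand): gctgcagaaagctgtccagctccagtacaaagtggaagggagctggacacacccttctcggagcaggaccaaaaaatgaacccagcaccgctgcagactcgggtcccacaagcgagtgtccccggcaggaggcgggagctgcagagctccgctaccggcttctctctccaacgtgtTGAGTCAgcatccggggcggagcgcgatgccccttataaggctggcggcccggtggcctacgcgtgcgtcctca
Gstp2 and Gstp1 were alike, with 82.8% identical bases in a global alignment. Gstp3 shared 53.2% with Gstp1 and 52.4% with Gstp2, within the 44.4% to 60.0% seen between GST genes of different classes (266 pairs). These values were also usual for pairs of the same class, which had a median of 52.8% (34 pairs, 44.4% to 82.8%). The pair of Gstp2 and Gstp1 was the highest of those. The AP-1 motif was found upstream of Gstp2 and of Gstp1, and not in the Gstp3 window. It was in 0 of the 10 windows found for the listed genes and in 4 of 25 windows of other GST genes. Its absence is thus not particular to Gstp3. Across all 32851 windows of this length it occurs in 4.46%. GC made up 52.8% of the Gstp3 window, 60.0% of that of Gstp2 and 63.2% of that of Gstp1.

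Upstream windows were found for 8 of the 10 genes, 10 windows in all. On both strands, the core of the antioxidant response element, TGACNNNGC, which can overlap TGACTCA on the same bases, was in 1 of the 10, that of Gsta3, and in 10.2% of all windows. The core of the xenobiotic response element, GCGTG, was in 4 (Gsta2, Gstp3 and both windows of Gstm1) and in 28.2% of all windows. TATAAA was in 2 of the 10 and 12.4% of all, the GC box GGGCGG in 1 of the 10 and 32.7% of all, and the nuclear receptor half-site AGGTCA in 0 of the 10 and 14.0% of all. A match is a run of letters, not a shown binding site.

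The 3 theta genes among the 10 lay lower in Baf60a LKO livers, by 1.75-fold to 2.37-fold. Gstt1, whose enzyme acts on small halogenated hydrocarbons, read 10.9 and 11.0 in Baf60a LKO and 11.8 and 11.7 in WT (1418186_at). The difference was -0.81 ± 0.12, or 1.75-fold lower, and the pools of a genotype differed by no more than 0.043. Gstt2 read 9.11 and 9.18 in Baf60a LKO and 9.93 and 10.1 in WT (1417883_at), a difference of -0.85 ± 0.13, or 1.81-fold lower. Gstt3 read 6.62 and 7.06 in Baf60a LKO and 8.30 and 7.87 in WT (1423891_at). Its difference was the widest of the class, -1.25 ± 0.22 or 2.37-fold lower, with gaps of 0.45 between the Baf60a LKO pools and 0.42 between the WT pools. In none of the 3 genes did the groups overlap. Leaving out 1 array in turn gave -0.83 to -0.79 for Gstt1, -0.92 to -0.78 for Gstt2 and -1.47 to -1.02 for Gstt3.

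The theta genes lie in a row on chromosome 10, in the order Gstt3, Gstt1, Gstt4 and Gstt2. Gstt4, which is not one of the 10, was dim, at 3.95 and 3.75 in Baf60a LKO and 4.31 and 4.10 in WT (-0.35 ± 0.15, limma, adjusted p = 0.618). The genes directly beside the row differed little. Ddt, beside Gstt3, differed by -0.04 ± 0.12, and Mif, beside Gstt2, by -0.00039 ± 0.13 (limma, adjusted p = 0.947 and 1). Further out, Cabin1 differed by 0.10 ± 0.13 and Derl3 by 0.41 ± 0.30 (limma, adjusted p = 0.837 and 0.716).

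**Figure D2:**
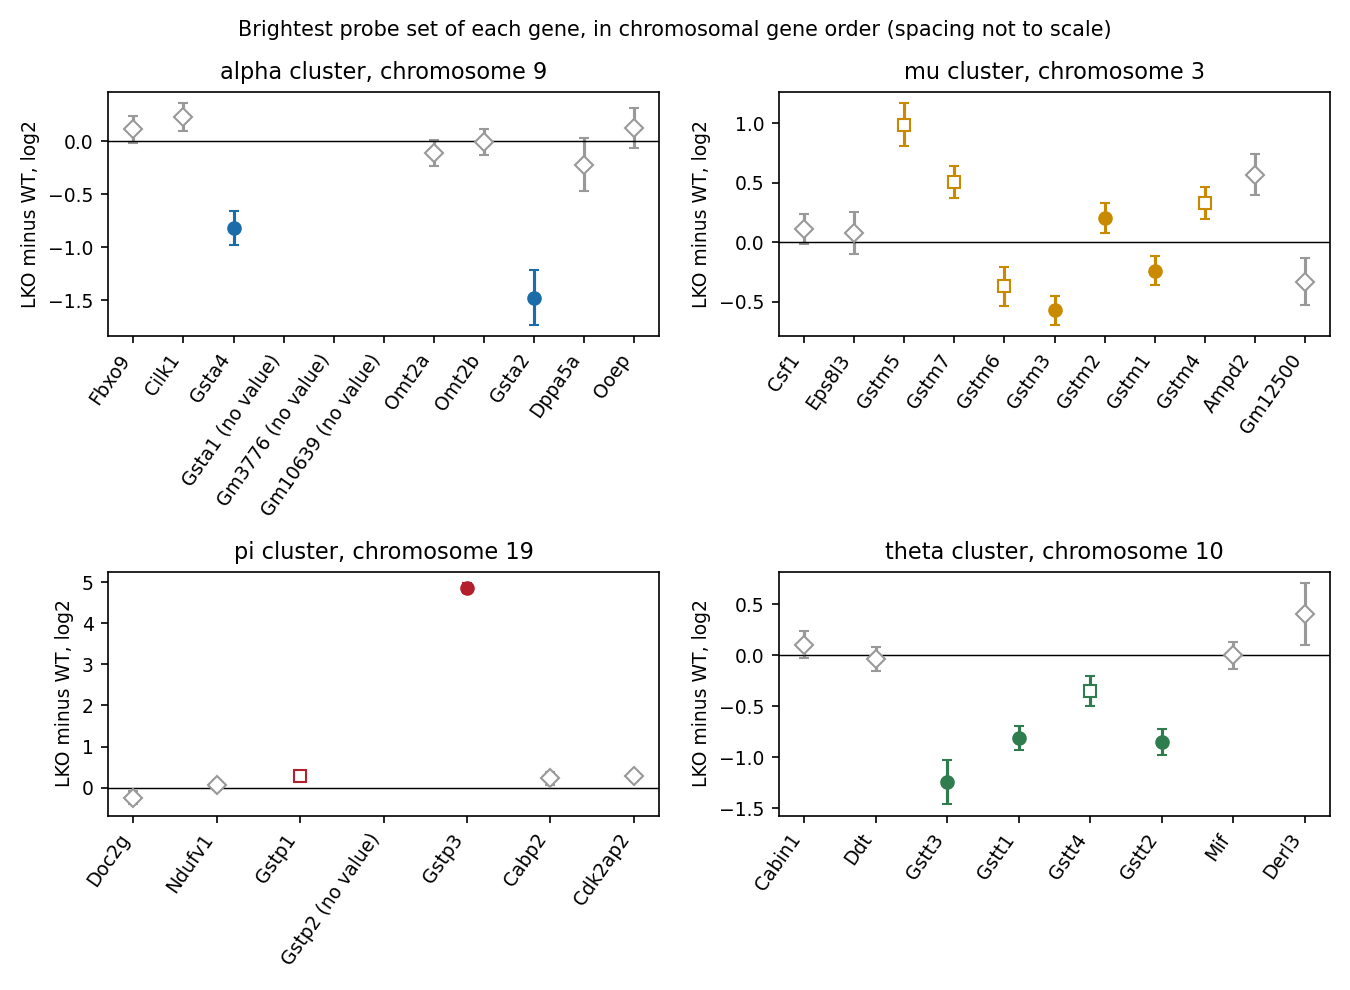
Difference between Baf60a LKO and WT (log2, with standard errors) for each gene of 4 GST clusters and the 2 genes on either side, in chromosomal order and not to scale; filled circles are the listed GST genes, open squares other GST genes, grey diamonds genes of other families, and genes with no probe set of their own have no value. The theta genes lie below 0 with Ddt and Mif directly beside them near 0 and Derl3, further out, at 0.41. Gstp3 alone stands at 4.86, and the mu genes lie on both sides of 0.

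Within the alpha class, Gsta2 lay furthest lower in Baf60a LKO of all 10 genes, while Gsta3 differed little. Gsta2 (1421040_a_at) read 6.76 and 7.49 in Baf60a LKO and 8.73 and 8.46 in WT. The groups did not overlap, though the Baf60a LKO pools lay 0.73 apart. The difference was -1.48 ± 0.26, or 2.78-fold lower, and -1.84 to -1.11 with 1 array left out. The probe set shared with Gsta1 and Gm3776 read 6.71 and 7.24 in Baf60a LKO and 8.69 and 8.61 in WT. Its difference was -1.67 ± 0.20, so both readings that include Gsta2 lay lower, and how much of the shared signal each gene gives cannot be told.

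Gsta4, which detoxifies 4-hydroxynonenal, a product of lipid peroxidation, read 8.79 and 9.11 in Baf60a LKO and 9.86 and 9.68 in WT (1416368_at). The difference was -0.82 ± 0.16, or 1.76-fold lower, and the groups did not overlap. Gsta3, known in mice for detoxifying activated aflatoxin, was read by 2 probe sets. The brighter (1423436_at) read 12.2 and 12.4 in Baf60a LKO and 12.3 and 12.5 in WT, and the groups overlapped (-0.12 ± 0.15, and -0.02 without Baf60a LKO replicate 1 or WT replicate 2). The other (1423437_at) read 9.15 and 9.51 in Baf60a LKO and 9.58 and 9.80 in WT. Its groups lay just apart (-0.36 ± 0.17, and -0.18 without Baf60a LKO replicate 1, but -0.54 if Baf60a LKO replicate 2 was left out). Gsta3 lies on chromosome 1, away from Gsta4, Gsta1, Gm3776, Gm10639 and Gsta2, which follow each other on chromosome 9 with Omt2a and Omt2b among them.

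Among the 10 genes, those of the mu class differed by less than those of the theta class. Gstm1, a major mu-class enzyme, was read by 4 probe sets, all lower in Baf60a LKO without overlap. The brightest (1416416_x_at) read 11.8 in both Baf60a LKO arrays and 12.0 in both WT arrays, a difference of -0.24 ± 0.12 or 1.18-fold lower. The others differed by -0.27 ± 0.12 (1448330_at), -0.50 ± 0.16 (1425627_x_at, and -0.33 without WT replicate 2) and -0.23 ± 0.13 (1425626_at). The names of 2 of the 4 end in _x_at and that of the brighter Gstm3 probe set in _s_at, suffixes that mark probe sets able to match other transcripts too.

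Gstm3 lay lower on that brighter probe set (1427474_s_at), at 7.29 and 7.35 in Baf60a LKO and 7.94 and 7.85 in WT (-0.57 ± 0.12, or 1.49-fold lower). On the dimmer one (1427473_at) it read 4.90 and 4.70 in Baf60a LKO and 5.29 and 4.73 in WT. Those groups overlapped, and the difference of -0.21 ± 0.21 turned to 0.07 without WT replicate 1. Gstm2 was the mu gene among the 10 that lay higher (1416411_at), at 7.55 and 7.68 in Baf60a LKO and 7.39 and 7.44 in WT. Its groups did not overlap by a narrow margin (0.20 ± 0.13), and they did overlap under a second normalization, by quantiles or by loess.

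**Figure D3:**
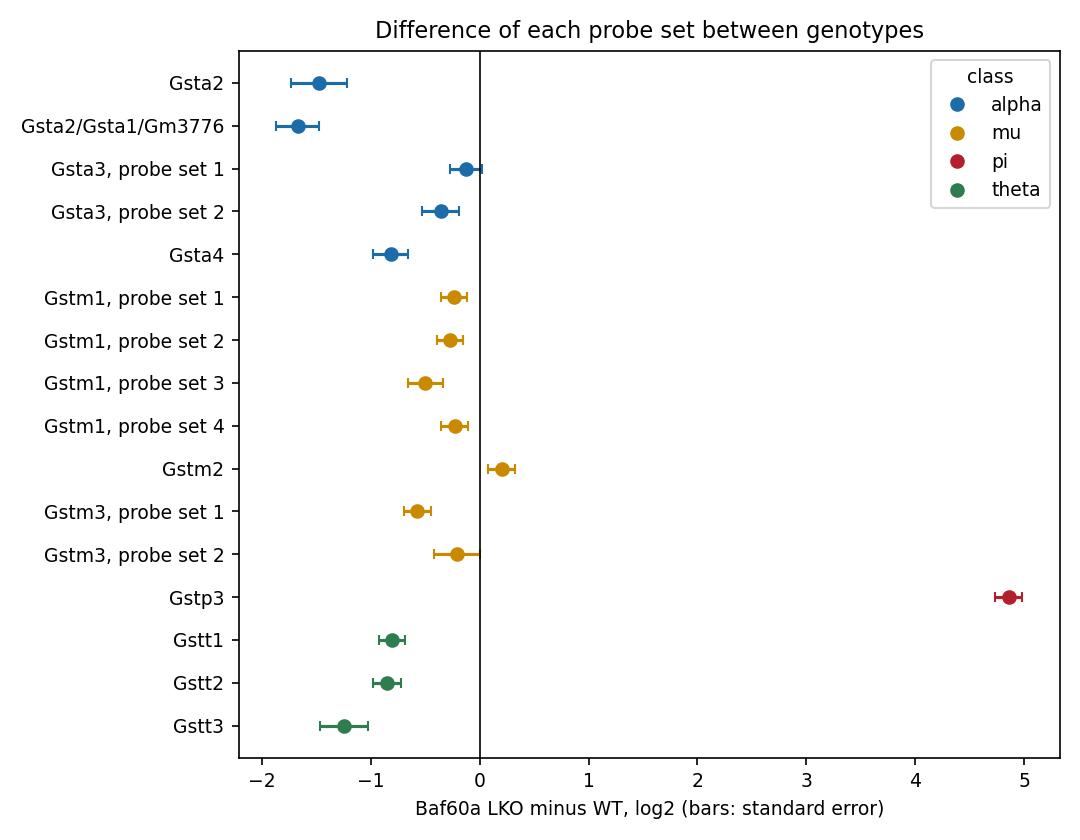
Baf60a LKO minus WT on the log2 scale for each GST probe set, with standard errors (n = 2 arrays each) and coloured by class. Gstp3 lies at 4.86, the theta probe sets between -1.25 and -0.81, and the mu probe sets between -0.57 and 0.20.

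The 7 mu genes lie side by side on chromosome 3, in the order Gstm5, Gstm7, Gstm6, Gstm3, Gstm2, Gstm1 and Gstm4, and their differences went both ways along the row. Of the 4 that are not among the 10, Gstm5 read 8.40 and 8.78 in Baf60a LKO and 7.48 and 7.73 in WT (0.99 ± 0.18, limma, adjusted p = 0.245). Gstm7 differed by 0.51 ± 0.14 on its brighter probe set and by -0.21 ± 0.22 on a dim one, Gstm4 by 0.33 ± 0.13 and Gstm6 by -0.37 ± 0.16. None of the 4 passed (limma, lowest adjusted p = 0.245).

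Beyond the 10 genes, 15 of 18 other GST and microsomal GST genes had a probe set of their own. Of these, 0 passed in either direction (limma over all probe sets), where 0.187% of all probe sets passed. At an unadjusted p under 0.05 there were 3, where 8.17% of all probe sets were. In a fit with only the brightest probe set of each gene there were 5, where 1853 of 18193 were. Without overlap, 4 of the 15 genes were higher and 6 lower (19.7% and 19.4% of all probe sets), and their median difference was 0.0096. Gstz1, an enzyme of tyrosine breakdown, differed by -0.37 ± 0.13, and Gstk1, of mitochondria and peroxisomes, by -0.13 ± 0.13. Gsto1 differed by -0.29 ± 0.13 on its brighter probe set and by 0.16 ± 0.25, with overlapping groups, on the other. The microsomal genes Mgst1, Mgst2 and Mgst3 differed by -0.06 ± 0.12, 0.0096 ± 0.13 and 0.02 ± 0.13, and Gstcd by 0.10 ± 0.16. Mgst2 was dim, at 3.49 and 3.41 in Baf60a LKO and 3.51 and 3.36 in WT. Gsto2 (0.05 ± 0.18) was near background, and Hpgds, a prostaglandin D synthase gene, was dim (-0.16 ± 0.22). The signs of Mgst2, Mgst3, Gstcd, Gsto2 and Hpgds turned when 1 array or another was left out.

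Genes that make, recycle, break down or export glutathione and its conjugates showed no call either. Of 29 listed, 27 were measured and 0 passed in either direction (limma), where 0.187% of all probe sets passed. At an unadjusted p under 0.05 there were 7, where 8.17% of all probe sets were. There were also 7 in a fit with only the brightest probe set of each gene, where 1853 of 18193 were. Without overlap, 14 were higher and 6 lower (19.7% and 19.4% of all probe sets), and the median difference was 0.13. The widest difference was that of Chac1, a glutathione-degrading enzyme, at 6.50 and 6.40 in Baf60a LKO and 7.49 and 7.12 in WT (-0.85 ± 0.16, limma, adjusted p = 0.275). Ggct, which acts on gamma-glutamyl products, differed by 0.79 ± 0.22 (0.47 without WT replicate 1), Cbs, of cysteine synthesis, by 0.53 ± 0.14, and Gpx3, a secreted glutathione peroxidase, by 0.52 ± 0.16.

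**Figure D4:**
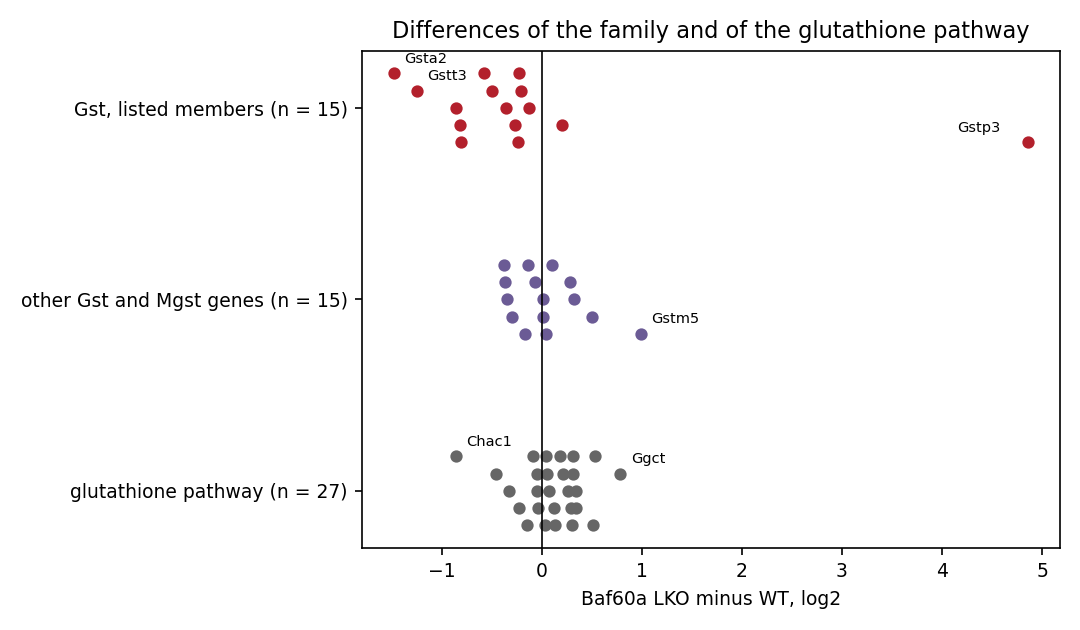
Baf60a LKO minus WT (log2) for the 15 probe sets of the listed GST genes, the brightest probe set of 15 other GST and microsomal GST genes, and that of 27 glutathione pathway genes; points are spread vertically for legibility. Gstp3 stands alone at 4.86, and Gstm5 (0.99) and Chac1 (-0.85) are the farthest of the other groups.

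Among 10 measured genes of known regulators of GST genes, 1 fell, 0 rose and 9 did not pass, while 0.187% of all probe sets passed. At an unadjusted p under 0.05 (limma) there were 3, where 8.17% of all probe sets were. The one that fell was Nr1i3, the gene of CAR, at 6.33 and 6.58 in Baf60a LKO and 11.2 and 11.3 in WT (-4.77 ± 0.14, limma, adjusted p = 0.00116). Nfe2l2, the gene of NRF2, differed by 0.47 ± 0.20 (0.20 without WT replicate 1, but 0.73 if WT replicate 2 was left out), Ahr, the dioxin receptor gene, by -0.38 ± 0.13, and Cebpb by -0.36 ± 0.12. Jun, a subunit of AP-1, differed by -0.31 ± 0.37, which turned to 0.28 without WT replicate 2 and was -0.91 without WT replicate 1. Whether the change of Nr1i3 has a part in the differences of the GST genes was not tested.

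By the distance between values centred on each probe set's mean over the 4 arrays, the genes most like Gstp3 were Tcf24 (root-mean-square distance 0.79), Akr1c18 (0.89) and Tomm40l (0.98), all of which had smaller differences, from 3.29 for Tcf24 to 2.91 for Tomm40l. The genes most like Gsta2 were Slc22a7 (0.14), Gstt3 (0.16) and Atp6v0d2 (0.17). With 4 arrays in 2 groups this likeness is mainly one of direction and size.

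Markers of bile duct cells lay higher beside Gstp3. Of 7 measured cholangiocyte markers, 6 were higher in Baf60a LKO without overlap, where 19.7% of all probe sets were. By limma 0 passed, and 4 had an unadjusted p under 0.05, where 8.17% of all probe sets did. In a fit with only the brightest probe set of each gene, 1853 of 18193 did, and the 7 markers were not counted in that fit. Their mean log2 level was 4.38 and 4.70 in Baf60a LKO and 3.79 and 3.97 in WT, and Cftr was at background in all arrays. Their part in the difference of Gstp3 was not tested. Of 6 hepatocyte markers, 2 were higher and 3 lower without overlap (19.7% and 19.4% of all probe sets). Their mean level was 12.9 and 13.0 in Baf60a LKO and 13.0 in both WT arrays. No marker of Kupffer cells, stellate cells, endothelial cells, adipocytes or lymphocytes passed or had an unadjusted p under 0.05 (limma, 0.187% and 8.17% of all probe sets). Without overlap, 2 of 7 stellate cell and 2 of 6 endothelial cell markers were lower, and 0 were higher. Of 2 adipocyte markers 1 was lower, and of 4 lymphocyte markers 1 was higher and 2 lower. The groups overlapped for all 7 Kupffer cell markers.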

How the data were processed

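Log2 expression per probe set was analysed from 4 Affymetrix arrays, grouped by the genotype in their titles. The authors deposited log2 values, and the submitters' processing notes name RMA, affy and limma, with no versions. RMA corrects background, normalizes arrays by quantiles and can understate differences of dim genes. The arrays hold no read depth. Of 45101 probe sets, 64 controls were left out. The platform annotation gave 1 symbol to 34945 probe sets and several to 932, and did not list 9160. Symbols were updated through Entrez numbers (34741 matched RefSeq of GRCm38.p6), which changed none of the 10 genes' symbols. No genome build is named for the values, so RefSeq served for names, gene order and upstream sequences.

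A linear model was fitted to all 45037 probe sets (limma 3.58.1, default eBayes, under R 4.3.3), and 2-sided p-values were adjusted by Benjamini-Hochberg, with calls at an adjusted p under 0.05. No filter on level was used. Genes outside the 10 were represented by the brightest probe set annotated to them alone. The members and lists were chosen with earlier results of these data known. The text names all probe sets of the 10 genes, all measured other GST genes, the 3 genes most like Gstp3 and Gsta2, and cluster neighbours. Of the pathway list and of the regulator list it names the called genes and the widest 4 of the rest. Upstream windows were aligned with Biopython 1.88 (global, match 1, mismatch -1, gap opening -3 and extension -0.5). Figures used matplotlib 3.10.9. The scripts were tested on simulated data. Same-numbered pools are not said to be paired. The alternatives were other normalizations, filters, probe set choices and variance models, a replicate block and leaving out each array.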

Additional observations from a re-analysis of the deposited data

How the results depend on the processing

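The direction of every member probe set held under the settings tried (171 of 172 values), except that of the dimmer Gstm3 probe set, which turned to 0.07 without WT replicate 1. The class medians of the listed probe sets kept their sign under the 12 settings. The alpha median moved to -0.82 with 1 probe set per gene, where 7 of 10 genes lay lower without overlap. Probe sets higher without overlap numbered 1 rather than 2 after quantile normalization or cyclic loess, since Gstm2 then overlapped. The count of probe sets past the threshold, 84 by limma, was 139 after quantile normalization (67 higher, 72 lower), 162 after cyclic loess (79 higher, 83 lower), 146 with array medians subtracted (78 higher, 68 lower), 173 with a trended and robust eBayes and 4 with a replicate block. Deviations of same-numbered pools correlated at 0.15, and with 2 pairs this does not show pairing. Of the 15 GST probe sets, 1 was called, but 2 after cyclic loess and 3 with the trended and robust eBayes. Since the genes were chosen on this contrast, nothing is read from how many of the 15 were called. Without any 1 of the 4 arrays the count was 0 by limma (1196 to 10697 at an unadjusted p under 0.05), with Gstp3 no longer past the threshold. Such fits have fewer degrees of freedom, and the lone pool of a genotype is assumed to vary like the other genotype's. Other GST genes and glutathione pathway genes past the threshold numbered 0 under every setting that kept all 4 arrays. With the replicate block, where 4 probe sets passed in all, that says little. Leaving out arrays for single genes outside the 10 was chosen after seeing the data. Dim probe sets, such as those of Gstt4, Gsto2, Mgst2 and Hpgds, limit what these arrays can show.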
